A study of Mus musculus with 2 samples.

Results

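Sqstm1 and 9 further autophagy genes were followed in single microglia from mice with and without PARK7/DJ-1 after lipopolysaccharide (LPS). The 10 genes were taken by name from the 19537 genes of the count matrices, and each had counts in both libraries. They fell into 3 classes by role: the receptors Sqstm1 and Optn, the ATG8 proteins Map1lc3a, Map1lc3b, Gabarap, Gabarapl1 and Gabarapl2, and the core machinery Atg5, Atg7 and Becn1. Cells were barcodes with at least 500 unique molecular identifiers (UMIs, tags that each mark 1 captured transcript molecule) and at least 100 genes. This left 320 of 9999 barcodes for the KO LPS library and 1427 of 9999 for the WT LPS library.

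The study asked how microglia that lack PARK7/DJ-1, a redox-responsive protein whose loss causes an inherited form of Parkinson's disease, respond to systemic inflammation. KO LPS came from PARK7/DJ-1 knock-out mice and WT LPS from their wildtype littermates, on a line backcrossed to C57BL/6NCrl, at 3 to 4 months of age. All mice of both groups had been injected once into the peritoneum with LPS, a component of bacterial membranes, at 4 μg per g of body weight, 24 h earlier. CD11b+CD45int cells were sorted from the brain and captured by Drop-seq, a droplet method that tags the 3' end of transcripts. Each genotype had 1 library, which pooled 1 female and 1 male mouse, and the knock-out allele, a gene trap, was carried by all cells of the KO mice. No untreated library was used here. With 1 library per genotype no test between genotypes could be made. The 95% intervals given here cover counting error only, and differences between mice, days or libraries cannot be told apart from genotype.

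Autophagy carries cytoplasmic cargo to the lysosome inside a double-membrane vesicle. Becn1 belongs to the lipid kinase complex that marks the site where the vesicle forms, and Atg7 and Atg5 are parts of the conjugation systems that attach ATG8 proteins to the growing membrane. Receptors such as Sqstm1 (p62) and Optn bind ubiquitin-tagged cargo on one side and membrane-bound ATG8 proteins on the other. Sqstm1 is itself degraded with its cargo, and its transcription is known to respond to oxidative stress and inflammatory signals. In microglia the pathway is known for the clearance of damaged mitochondria, protein aggregates and inflammasome components.

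The cells of KO LPS held 381305 UMIs and those of WT LPS 1989011, with a median of 963.5 and 1065 UMIs per cell. The libraries therefore differed in depth, and 1 UMI was worth 2.62 CPM (counts per 1e6 UMIs of the cells) in KO LPS against 0.503 CPM in WT LPS. Park7 itself had 1 UMI in KO LPS against 323 in WT LPS, as the labels state. All 12 microglia markers were present in both libraries, and they summed to 33847 CPM in KO LPS against 24802 CPM in WT LPS. Other markers were unequal: the 4 choroid plexus markers summed to 2130 CPM in KO LPS against 14.6 CPM in WT LPS, the 4 endothelial markers to 81.3 and 15.1 CPM, the 6 astrocyte markers to 370 and 173 CPM, the 5 neutrophil markers to 0 and 64.4 CPM, and the 28 inflammatory genes to 960 and 12211 CPM. The 5 border macrophage markers summed to 62.9 and 35.7 CPM, a ratio of 1.76 (1.06 to 2.84). The 4 neuron markers summed to 21.0 and 8.04 CPM, a ratio of 2.61 (0.966 to 6.46). Cells with at least 3 UMIs of markers of other cell types, summed over the lists of all other types, numbered 30 of 320 in KO LPS and 47 of 1427 in WT LPS. Cells with a Xist UMI and no Y-linked UMI numbered 200 and 565, and cells with a Y-linked UMI and no Xist UMI 12 and 195, while 9 and 80 cells had both and 99 and 587 had neither. No cell barcode was shared between the libraries.

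Together the 10 genes held 269 UMIs in KO LPS against 1059 in WT LPS, or 705 CPM (623.7 to 795) and 532 CPM (501 to 565). The level was 1.33-fold higher in KO LPS (1.15 to 1.52). Of these UMIs 75 and 92 lay in the cells that held markers of other cell types, and without those cells the ratio was 1.15 (0.982 to 1.35), which includes 1. Of the 10 genes, 3 were at least 2-fold higher in KO LPS, namely Optn, Map1lc3a and Gabarapl1, beside 12.9% of the 9085 genes that had 20 UMIs or more in both libraries together. None was at least 2-fold lower, beside 17.1% of those genes. The median log2 ratio (KO LPS divided by WT LPS) was 0.41 for the 10 genes and -0.02 for all 9085 genes, and 7 of the 10 genes were higher in KO LPS, beside 49.3% of all genes. The choice of scaling shifted all log2 ratios alike. With edgeR TMM factors every log2 ratio fell by 0.22, which left the median of the 10 genes at 0.19 and that of all genes at -0.24. The same 3 genes stayed past 2-fold, 7 of the 10 genes stayed higher in KO LPS, and 8.75% of all genes were then called higher and 22.5% lower.

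**Figure D1:**
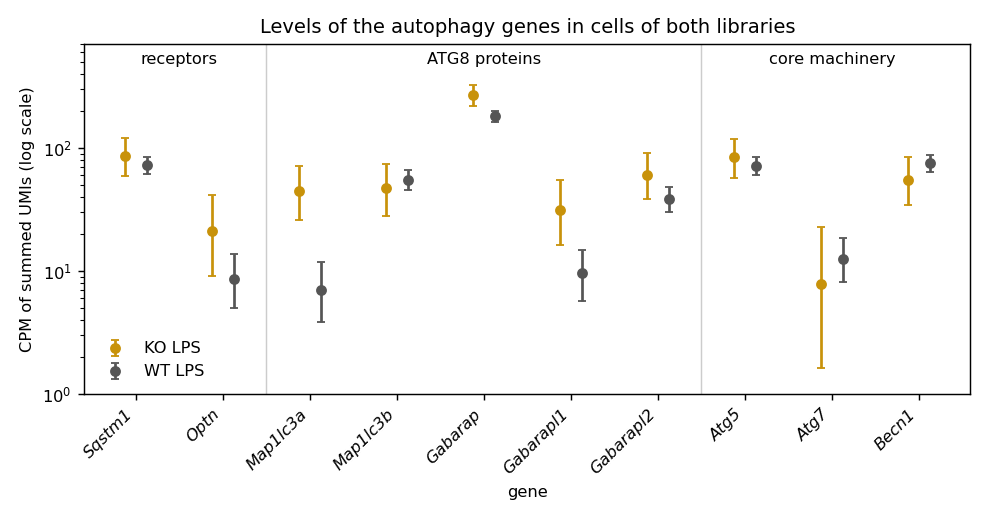
Summed level of each of the 10 genes (CPM, log scale) in either library, with exact 95% Poisson intervals as bars, ordered by role. The intervals of both libraries are apart for Map1lc3a, Gabarap and Gabarapl1, and they overlap for the other 7 genes. Of all 9085 genes 13.9% have intervals apart and higher in KO LPS.

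Sqstm1, the receptor whose protein level is widely read as a sign of autophagic activity, did not differ between the libraries beyond counting error. It had 33 UMIs in KO LPS against 144 in WT LPS, or 86.5 CPM (59.6 to 122) and 72.4 CPM (61.1 to 85.2). The ratio was 1.20 (0.793 to 1.76). In KO LPS the level in the cells was 0.973 times that in the barcodes outside them (0.567 to 1.68), against 2.88 (1.90 to 4.52) in WT LPS, so that the UMIs of the KO LPS cells cannot be told apart from free RNA and the ratio sets no lower bound on what the cells themselves expressed. Without the cells that held markers of other cell types the levels were 77.8 and 72.6 CPM, with a ratio of 1.07 (0.670 to 1.65). The gene lies at chr11:50200152-50210820 on the minus strand (GRCm38.p6, RefSeq). Its exons overlap exons of Mgat4b and Mrnip on the opposite strand, and whether counting used the strand is not given in the sources used here, so that some of its UMIs may belong to these neighbours.

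Promoter sequence was looked up for all 10 genes, since regulators of autophagy genes are known to bind short motifs. The RefSeq table (GRCm38.p6) held 8 of them, and Map1lc3a and Becn1 had no entry. Its windows lie before 1 transcript start per gene, which need not be the outermost one. For 5 of the 8 (Sqstm1, Gabarap, Gabarapl1, Gabarapl2 and Map1lc3b) this start is the edge of the gene given here, for Atg5 it lies 17 bases inside the gene, for Optn 282 bases and for Atg7 27969 bases, so that the windows of Optn and Atg7 lie wholly within the gene. In the 250 bases before the table's start, on either strand, 4 motifs were searched. The E-box CACGTG is the centre of the element bound by TFEB and its relatives, TGACNNNGC is the core of the antioxidant response element bound by NRF2, GGGCGG is the GC box bound by SP1, and TATAAA is the TATA box. The GC box was found in 6 of the 8 members, namely Sqstm1, Optn, Map1lc3b, Gabarapl1, Gabarapl2 and Atg5, and in 32.7% of all 32851 windows of the table. The E-box was found in the windows of Atg5 and Atg7, in both past the gene edge, and in 6.02% of all windows. The antioxidant response element core and the TATA box were found in none of the 8, and in 10.2% and 12.4% of all windows, which says only that these letters are not in this window. No motif found in these 8 overlapped another. Of the sequences shown, Sqstm1 (chr11:50210821-50211070, minus strand) is the receptor the comparison turns on, Gabarapl1 (chr6:129532942-129533191, plus strand) an ATG8 gene past 2-fold, Gabarap (chr11:69991120-69991369, plus strand) the ATG8 gene with most UMIs, and Atg5 (chr10:44268089-44268338, plus strand) the core gene with an E-box nearest to its start. Capitals mark the motifs. Counted from the table's start, they lie 72, 53 and 33 bases before the start in Sqstm1 and 47 and 10 bases before it in Gabarapl1 (all GC boxes). In Atg5 a GC box lies 29 bases and the E-box 14 bases before that start, the E-box thus within the first 17 bases of the gene, and Gabarap held none of the 4 motifs.
Sqstm1: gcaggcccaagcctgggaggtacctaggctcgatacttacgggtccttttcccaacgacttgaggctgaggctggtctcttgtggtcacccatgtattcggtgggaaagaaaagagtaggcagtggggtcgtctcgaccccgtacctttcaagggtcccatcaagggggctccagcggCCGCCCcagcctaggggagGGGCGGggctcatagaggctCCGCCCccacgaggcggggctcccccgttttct
Gabarapl1: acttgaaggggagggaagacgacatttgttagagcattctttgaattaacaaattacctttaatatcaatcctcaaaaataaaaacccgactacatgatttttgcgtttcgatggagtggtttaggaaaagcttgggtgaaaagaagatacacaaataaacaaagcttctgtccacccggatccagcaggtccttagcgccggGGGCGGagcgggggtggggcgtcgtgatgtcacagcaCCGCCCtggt
Gabarap: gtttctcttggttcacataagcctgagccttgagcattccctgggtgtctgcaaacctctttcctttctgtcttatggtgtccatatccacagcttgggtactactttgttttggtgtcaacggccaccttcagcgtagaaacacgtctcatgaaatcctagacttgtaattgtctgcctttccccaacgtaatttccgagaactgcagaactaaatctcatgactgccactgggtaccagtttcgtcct
Atg5: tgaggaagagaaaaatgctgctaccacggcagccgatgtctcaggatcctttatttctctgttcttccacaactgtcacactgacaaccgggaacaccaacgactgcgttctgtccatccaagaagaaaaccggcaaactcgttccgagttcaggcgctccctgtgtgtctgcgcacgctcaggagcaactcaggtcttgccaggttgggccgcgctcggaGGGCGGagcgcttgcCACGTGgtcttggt

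Optn, the second receptor, which takes part in the removal of damaged mitochondria and of intracellular bacteria, was sparse. It had 8 UMIs in KO LPS against 17 in WT LPS, or 21.0 CPM (9.06 to 41.3) and 8.55 CPM (4.98 to 13.7). The ratio of 2.45 was past 2-fold, but its interval of 0.917 to 6.0 reached below 1. An exon of Optn (chr2:5020521-5064399, minus strand) overlaps the long non-coding RNA 4930551O13Rik on the opposite strand. Summed, the receptors had 41 and 161 UMIs, or 108 CPM (77.2 to 146) and 80.9 CPM (68.9 to 94.5), with a ratio of 1.33 (0.919 to 1.88). Receptors made up 15.2% of the UMIs of the 10 genes in either library.

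In summed UMIs, free RNA included, the ATG8 proteins were higher in KO LPS as a class. Their difference was smaller without the cells that held markers of other cell types. They had 172 UMIs in KO LPS against 580 in WT LPS, or 451 CPM (386 to 524) and 292 CPM (268 to 316), and the ratio was 1.55 (1.30 to 1.84). Most of these UMIs came from Gabarap (chr11:69991370-69994949, plus strand), an ATG8 protein known for late steps of vesicle formation and for receptor trafficking. Gabarap had 102 and 361 UMIs, or 268 CPM (218 to 325) and 182 CPM (163 to 201), with a ratio of 1.47 (1.17 to 1.84). Its level in the cells was 1.53 times that outside in KO LPS (1.09 to 2.18) and 1.36 times in WT LPS (1.12 to 1.67). By share of cells, given below, the KO LPS interval of the class (14.1 to 22.8%) includes the 15.1% that free RNA alone would give. In WT LPS free RNA alone would give 9.06%, below the interval there (11.4 to 15.0%). Free RNA thus differed in the same direction, and its part in the summed ratio cannot be read from these values.

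The Gabarap difference moved with cells that held markers of other cell types. In KO LPS 39 of its 102 UMIs lay in the 30 such cells, which held 15.7% of all UMIs, and in WT LPS 40 of 361 lay in 47 such cells with 7.19% of all UMIs. Gabarap stood at 651 CPM in these cells of KO LPS and at 280 CPM in those of WT LPS. In KO LPS 3 of the cells held at least 3 choroid plexus UMIs, and these 3 cells had 9 Gabarap UMIs. The astrocyte markers alone reached 3 UMIs in 5 of the 30 KO LPS cells and 13 of the 47 WT LPS cells, the most of any single list. The rule sums all lists, so that such a cell need not be of another type. A fixed count also favours deep cells, with a median of 1942.5 UMIs in the 30 KO LPS cells against 963.5 over all 320. Without the cells that held other markers, Gabarap had 63 and 321 UMIs, or 196 CPM (151 to 250.8) and 174 CPM (155 to 194), and the ratio was 1.13 (0.846 to 1.48). The ratio of the ATG8 class fell from 1.55 to 1.28 (1.04 to 1.57) there, below the interval of 1.30 to 1.84 over all cells.

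Map1lc3a and Gabarapl1, both of low level, had the highest ratios of the 10 genes. Map1lc3a (chr2:155276364-155278073, plus strand) encodes LC3A, a form of LC3 that neurons are known to express. It had 17 UMIs in KO LPS against 14 in WT LPS, or 44.6 CPM (26.0 to 71.4) and 7.04 CPM (3.85 to 11.8), with a ratio of 6.33 (2.94 to 13.9). Its UMIs lay in 16 KO LPS cells and 14 WT LPS cells, with at most 2 in a cell. With the cells that held other markers left out 13 and 14 UMIs remained, and the ratio was 5.33 (2.31 to 12.2). In all barcodes outside the cells, which hold free RNA and cells of few UMIs, the gene stood at 42.8 and 6.51 CPM, a ratio whose interval lay above 1, as it did there for 17.9% of the 9085 genes. In barcodes with 1 to 100 UMIs it stood at 30.2 and 6.33 CPM, from 6 and 2 UMIs. Gabarapl1 (chr6:129533192-129542331, plus strand) encodes a GABARAP relative that is a known target of FOXO factors. It had 12 and 19 UMIs, or 31.5 CPM (16.3 to 55.0) and 9.55 CPM (5.75 to 14.9), with a ratio of 3.30 (1.46 to 7.15). With those cells left out the ratio was 3.02 (1.26 to 6.83). An exon of Gabarapl1 overlaps the long non-coding RNA 1700101I11Rik on the opposite strand.

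Map1lc3b and Gabarapl2 did not differ beyond counting error. Map1lc3b (chr8:121590438-121598760, plus strand), the LC3 form most used as a marker of autophagic vesicles, had 18 UMIs in KO LPS against 110 in WT LPS, or 47.2 and 55.3 CPM, with a ratio of 0.854 (0.488 to 1.41). Its exons overlap Zcchc14 on the opposite strand. Gabarapl2 (chr8:111940703-111952915, plus strand), also called GATE-16 and known for membrane transport in the Golgi, had 23 and 76 UMIs, or 60.3 and 38.2 CPM, with a ratio of 1.58 (0.945 to 2.54). The ratio of Map1lc3a over Map1lc3b, which does not depend on the scaling of the libraries, was 0.944 UMIs of Map1lc3a per UMI of Map1lc3b in KO LPS against 0.127 in WT LPS, and these differed 7.42-fold (2.85 to 19.2). The level of Map1lc3a in the cells was 1.04 times that outside them in KO LPS (0.476 to 2.33) and 1.08 times in WT LPS (0.408 to 3.16). For Gabarapl1 these values were 1.36 (0.495 to 4.09) and 1.28 (0.537 to 3.39), so that the UMIs of neither gene can be told apart from free RNA in either library. The GABARAP genes, summed, had a ratio of 1.57 (1.29 to 1.90). The LC3 genes, summed, had a ratio of 1.47 (0.982 to 2.16), which includes 1.

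The core machinery did not differ between the libraries beyond counting error. Its 3 genes summed to 56 UMIs in KO LPS against 318 in WT LPS, or 147 CPM (111 to 191) and 160 CPM (143 to 178), with a ratio of 0.919 (0.679 to 1.22). Atg5 (chr10:44268322-44364299, plus strand), part of the ligase that joins ATG8 proteins to lipid, had 32 and 143 UMIs, or 83.9 and 71.9 CPM, with a ratio of 1.17 (0.770 to 1.72). Becn1 (chr11:101288258-101302286, minus strand) had 21 and 150 UMIs, or 55.1 and 75.4 CPM, with a ratio of 0.730 (0.439 to 1.16), and its exons overlap Cntd1 on the opposite strand. Atg7 (chr6:114643127-114860604, plus strand), the activating enzyme of both conjugation systems, had 3 and 25 UMIs, or 7.87 and 12.6 CPM, with a ratio of 0.626 (0.121 to 2.05). The 3 UMIs of Atg7 in KO LPS cannot show a difference of this size. For each of the 3 genes the level in the cells was set against that in the barcodes outside them. In both libraries the interval included 1, as for Becn1 at 0.983 (0.494 to 1.98) in KO LPS and 1.19 (0.889 to 1.61) in WT LPS. The UMIs of the core genes thus cannot be told apart from free RNA in either library.

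**Figure D2:**
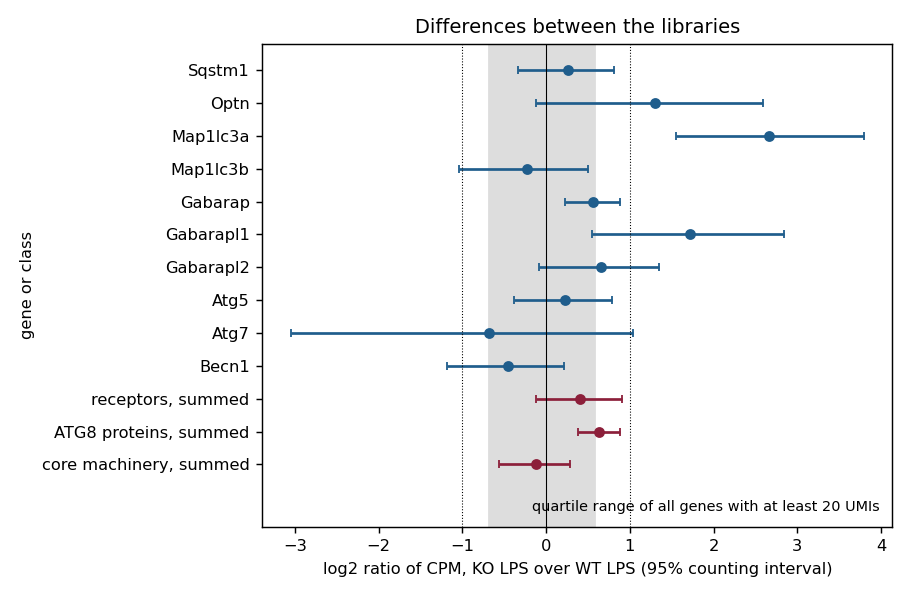
log2 ratio of CPM, KO LPS over WT LPS, of the 10 genes and of the 3 summed classes (points), with exact 95% counting intervals (bars), the range between the quartiles of all 9085 genes (grey) and 2-fold lines (dotted). Map1lc3a at 2.66 and Gabarapl1 at 1.72 lie farthest to the right, the summed ATG8 proteins lie at 0.63, and the intervals of the summed receptors and of the summed core machinery include 0.

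Receptors were compared with the core machinery within each library, so that the depth and the scaling of the libraries cancel. Free RNA does not cancel in this way. In the shares of cells given below, the KO LPS intervals of receptors, core machinery and ATG8 proteins each include the share from free RNA. In WT LPS that of the core machinery does so too. There were 0.732 receptor UMIs per core UMI in KO LPS against 0.506 in WT LPS. The ratio of these ratios was 1.45 (0.900 to 2.31), which includes 1. In log2 this is 0.53. It was 0.895 in cells of at least 1000 UMIs, 0.92 in cells with Xist and no Y-linked UMI, and 0.24 as a mean of each cell's UMI fraction. No intervals were computed for these alternatives. For Sqstm1 alone against the core it was 1.30 (0.783 to 2.14). ATG8 UMIs per core UMI were 3.07 in KO LPS against 1.82 in WT LPS, and here the interval left out 1, at 1.68 (1.20 to 2.39). The receptors against the ATG8 proteins gave 0.859 (0.570 to 1.27). Without the cells that held markers of other cell types the ATG8 proteins against the core gave 1.42 (0.973 to 2.11), which includes 1, and the receptors against the core 1.34 (0.785 to 2.26).

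The same UMIs were then counted as shares of cells. Cells were thinned to 500 UMIs each, since a deeper cell has more chances to show a gene, and all cells could be thinned. Beside each share stands the share that a droplet of 500 UMIs would reach with free RNA alone, computed from barcodes with 1 to 100 UMIs. A Sqstm1 UMI was seen in 9 of 320 cells of KO LPS, or 2.81% (1.29 to 5.27), and in 48 of 1427 cells of WT LPS, or 3.36% (2.49 to 4.44). The difference was -0.55 percentage points (-2.41 to 2.06). In the cells of at least 1000 UMIs, thinned to 500, it was -0.10 points, and with no thinning of any cell -1.09 points. With the same deeper cells thinned to 1000 it changed sign, and 15 of 148 KO LPS cells (10.1%, 5.78 to 16.2) and 47 of 770 WT LPS cells (6.10%, 4.52 to 8.03) had a Sqstm1 UMI, a difference of 4.03 points (-0.73 to 10.3). Before thinning the shares were 7.81% and 8.90%, and no cell held more than 2 Sqstm1 UMIs. Free RNA alone would give 4.19% (2.46 to 6.62) in KO LPS and 1.26% (0.545 to 2.47) in WT LPS. At 500 UMIs the KO LPS share of Sqstm1 thus could not be told apart from free RNA, as the intervals overlap, and is read as background. The WT LPS share lay above free RNA. At 1000 UMIs free RNA alone would give 8.20% in KO LPS, within the interval of the share there, and 2.5% in WT LPS, below it.

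Gabarap was the gene of the 10 seen in the highest share of cells, in 11.2% of KO LPS (8.0 to 15.2) and 8.69% of WT LPS (7.28 to 10.3), beside 9.12% and 6.73% from free RNA. Before thinning the shares were 20.9% and 19.6%, and the most Gabarap UMIs in a cell were 8 and 7. Among the other ATG8 genes, Map1lc3b was seen in 2.5% and 2.45% of cells (free RNA 1.00% and 1.57%), Gabarapl1 in 1.88% and 0.631% (1.00% and 0.158%), Gabarapl2 in 1.25% and 1.68% (3.22% and 0.474%) and Map1lc3a in 1.25% and 0.350% (1.5% and 0.316%). Optn was seen in 0.938% and 0.350% of cells (free RNA 0.502% and 0.474%). The core genes stood close to free RNA, with Atg5 in 4.38% and 3.57% of cells (4.19% and 3.73%), Becn1 in 2.81% and 3.29% (2.97% and 2.81%) and Atg7 in 0.312% and 0.631% (0.752% and 0.946%). In KO LPS Map1lc3a, Gabarapl2, Becn1 and Atg7, and in WT LPS Optn, Atg5 and Atg7, lay at or below free RNA as well and are read as background. By class, an ATG8 UMI was seen in 18.1% of KO LPS cells (14.1 to 22.8), an interval that includes the 15.1% from free RNA, and in 13.1% of WT LPS cells (11.4 to 15.0), above the 9.06% from free RNA. Receptors were seen in 3.44% and 3.71% of cells (free RNA 4.67% and 1.73%) and the core machinery in 7.5% and 7.36% (7.74% and 7.32%). Any of the 10 genes was seen in 26.9% of KO LPS cells (22.1 to 32.1) and 22.2% of WT LPS cells (20.1 to 24.5), beside 25.3% and 17.2% from free RNA. At 500 UMIs per cell these genes are therefore mostly seen as single molecules, and a cell with none cannot be called negative.

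**Figure D3:**
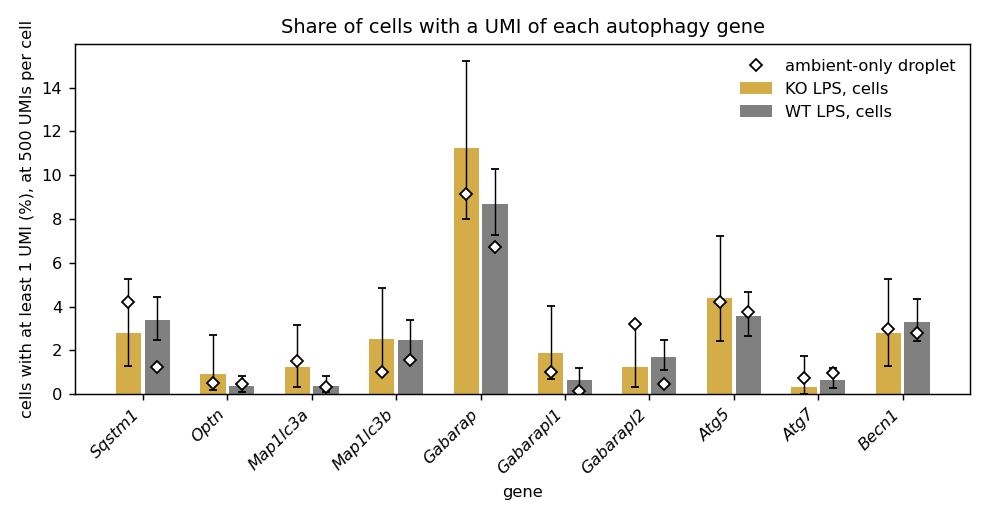
Percent of cells with at least 1 UMI of each gene at 500 UMIs per cell (bars, with exact 95% Clopper-Pearson intervals) and the share that free RNA alone would give (open diamonds). The diamond of Sqstm1 lies above the KO LPS bar, at 4.19% against 2.81%, and below the WT LPS bar, at 1.26% against 3.36%.

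UMIs of different members were at most weakly related over cells. Over pairs of the 10 genes in thinned cells, Pearson's r ranged from -0.06 to 0.17 across the 320 KO LPS cells and from -0.04 to 0.12 across the 1427 WT LPS cells, with Sqstm1 and Optn the highest pair in KO LPS and Sqstm1 and Map1lc3a in WT LPS. Among genes seen in at least 10% of cells, those most like Sqstm1 were Rps14 (r = 0.25), mt-Tm (0.23) and Snw1 (0.19) in KO LPS, of 801 genes, and H3f3b (0.09), Lgmn (0.08) and Apoe (0.08) in WT LPS, of 808 genes. None of these genes was shared between the libraries. All cells of a library share its depth and free RNA, and at counts this sparse such weak values are no finding.

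The inflammatory response itself differed widely between the libraries, so that levels were also set out by the number of inflammatory UMIs per thinned cell. These bands are ranges of a count and not cell types: 412 WT LPS cells stood at 2 or 3 UMIs, next to the first limit, and free RNA alone would give a mean of 2.39 per WT LPS cell. In WT LPS 565 cells had 0 to 2, 428 had 3 to 5 and 434 had 6 or more, whereas in KO LPS 312 of 320 cells had 0 to 2. Nfkbia, an inhibitor of NF-kappaB that NF-kappaB itself induces, is 1 of the 28 genes that define the bands and is shown only for scale, at 721, 1210 and 1572 CPM in WT LPS. Sqstm1, which the bands do not use, differed between them by less than counting error. Its level was 76.4 CPM (57.2 to 99.9), 68.8 CPM (49.6 to 93) and 71.6 CPM (53.0 to 94.6), and the ratio of the highest to the lowest band was 0.937 (0.622 to 1.41). Gabarap stood at 141, 195 and 210 CPM, with a ratio of 1.49 (1.14 to 1.95), and the ATG8 class at 248, 300 and 329 CPM, with a ratio of 1.33 (1.08 to 1.63). The core machinery stood at 148, 160 and 171 CPM, with a ratio of 1.15 (0.876 to 1.52). Median UMIs per cell were 960 in the lowest and 1216 in the highest band, and the part of this difference in depth was not tested.

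Within the lowest band, 312 cells of KO LPS were compared with 565 cells of WT LPS. Sqstm1 stood at 86.6 and 76.4 CPM, with a ratio of 1.13 (0.707 to 1.79), and the core machinery at 149 and 148 CPM, with a ratio of 1.00 (0.709 to 1.40). Gabarap stood at 268 and 141 CPM, a ratio of 1.90 (1.42 to 2.53), and the ATG8 class at 449 and 248 CPM, a ratio of 1.81 (1.46 to 2.26). Optn had 8 and 2 UMIs in this band, a ratio of 7.51 (1.5 to 72.6), whose interval left out 1, unlike that over all cells. This comparison was chosen after the data had been seen. As the band holds nearly all KO LPS cells, the ratios differ from those over all cells mainly through the WT LPS levels, and the cells that held other markers are still included.

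**Figure D4:**
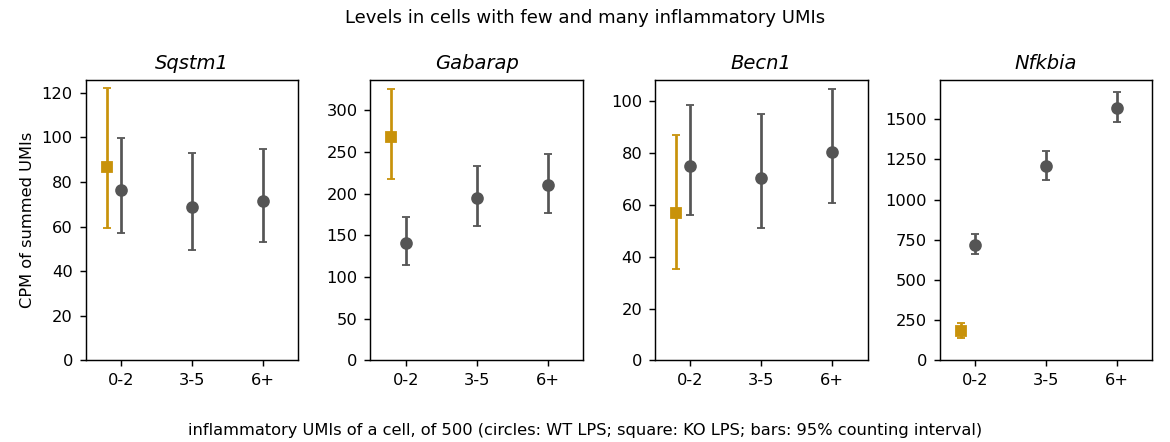
CPM of Sqstm1, Gabarap, Becn1 and Nfkbia in WT LPS cells (circles) by the number of inflammatory UMIs among 500 per cell, and in KO LPS cells with 0 to 2 such UMIs (square), with exact 95% Poisson intervals. Nfkbia, which helps to define the bands, goes from 721 to 1572 CPM over the bands of WT LPS, and Sqstm1 stays between 68.8 and 76.4 CPM.

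Depth and sex-linked transcripts were checked in the same way. In cells of fewer than 1000 UMIs Sqstm1 stood at 31.7 CPM in 172 cells of KO LPS and 56.3 CPM in 657 cells of WT LPS (ratio 0.562, 0.143 to 1.61). In cells of 1000 UMIs or more it stood at 114 CPM in 148 cells and 77.5 CPM in 770 cells (ratio 1.47, 0.942 to 2.22). The direction for Sqstm1 therefore turned with depth, with both intervals including 1. The receptor class likewise had a ratio of 0.805 (0.301 to 1.85) in the shallower and 1.57 (1.04 to 2.31) in the deeper cells, where the interval left out 1. The core machinery had ratios of 1.15 (0.660 to 1.92) and 0.846 (0.579 to 1.20), with Atg5 at 2.03 (1.01 to 3.94) and 0.875 (0.493 to 1.46). The ATG8 class had ratios of 1.59 (1.13 to 2.22) and 1.56 (1.26 to 1.91) in the shallower and the deeper cells. A Xist UMI alone does not show female origin, since 9 KO LPS and 80 WT LPS cells held Xist and Y-linked UMIs together. Among cells with Xist and no Y-linked UMI the ATG8 ratio was 1.62 (1.29 to 2.03), the receptor ratio 1.67 (1.02 to 2.67) and the core ratio 0.882 (0.610 to 1.25). The receptor interval left out 1 in these cells and in the deeper cells, but not over all cells. The 30 KO LPS cells with markers of other cell types had a median of 1942.5 UMIs and held 8 of the 33 Sqstm1 UMIs and 2 of the 8 Optn UMIs, and without such cells the receptor ratio was 1.20 (0.789 to 1.78). Only 12 KO LPS cells had a Y-linked and no Xist UMI, too few to read levels from.

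Beyond the 10 genes, 75 further autophagy genes were taken in 6 lists by step of the pathway. Of these, 68 had at least 20 UMIs, and 13 were at least 2-fold higher in KO LPS (19.1%, beside 12.9% of all genes) and 5 at least 2-fold lower (7.35%, beside 17.1%). Their median log2 ratio was 0.22, beside -0.02 for all genes. Within each list the gene with the highest and the lowest log2 ratio among those with at least 50 UMIs is named, and further genes past 2-fold are named after their values were seen. Unlike the 10 genes, these were not set against barcodes outside the cells. In those barcodes 17.9% of the 9085 genes had a ratio interval above 1, higher in KO LPS. The part of free RNA in the ratios of the 6 lists was not tested.

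The initiation list, the kinase complex that starts the pathway, had the highest median, 1.11 over 5 genes, all of them higher in KO LPS. Rb1cc1 (FIP200, the scaffold of the complex) had 126 UMIs in KO LPS against 276 in WT LPS, or 330 and 139 CPM, with a ratio of 2.38 (1.91 to 2.95). Ulk2, one of its kinases, stood at 247 and 114 CPM, with a ratio of 2.16 (1.68 to 2.76). The other gene past 2-fold was Ulk1, at 28.8 and 5.03 CPM from 11 and 10 UMIs. In the list of the lipid kinase complex that holds Becn1 the median was 0.33 over 7 genes, with Ambra1, an activator of Becn1, at 39.3 and 19.1 CPM and Nrbf2, a regulatory subunit, at 21.0 and 45.8 CPM. Conjugation and lipid transfer had a median of 0.14 over 15 genes, with none at least 2-fold higher and 2 lower. Its highest was Wipi2, which recruits the ligase to the membrane, at 42.0 and 24.6 CPM, and its lowest Vmp1, a membrane protein of vesicle formation, at 44.6 and 133 CPM with a ratio of 0.335 (0.192 to 0.546). The other one past 2-fold was the protease gene Atg4d, from 2 and 25 UMIs.

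Of 15 other receptors 5 were at least 2-fold higher in KO LPS and none lower, with a median of 0.25. Ccpg1, a receptor for the endoplasmic reticulum, stood at 60.3 and 14.6 CPM, with a ratio of 4.14 (2.29 to 7.41). The others past 2-fold were Nbr1, a cargo receptor that works with p62, with 57 and 107 UMIs and a ratio of 2.78 (1.98 to 3.87), Retreg1 (listed as Fam134b) at 2.38 (1.84 to 3.05), Tollip at 3.18 (1.51 to 6.44) and Ncoa4, the ferritin receptor, at 2.73 (1.19 to 5.93). The lowest was Phb2, a receptor of the inner mitochondrial membrane, at 60.3 and 97.5 CPM with a ratio of 0.618 (0.383 to 0.955). The fusion list, whose products join the vesicle to the lysosome, had a median of -0.04 over 13 genes, from Vps41 at 139 and 79.4 CPM down to Ykt6. Of its genes 1 was past 2-fold, Plekhm1, with 1 UMI in KO LPS against 20 in WT LPS. Among 13 regulators 4 were at least 2-fold higher and 1 lower. Tfeb, the factor that binds the E-box named above, stood at 68.2 and 21.6 CPM, with a ratio of 3.15 (1.86 to 5.25), and its relative Mitf at 83.9 and 32.2 CPM. Foxo3 and Rptor were also past 2-fold, with ratios of 2.53 (1.30 to 4.73) and 2.52 (1.82 to 3.46). Trim30a, an interferon-induced gene, was the lowest at 254 and 523 CPM, with a ratio of 0.486 (0.391 to 0.599).

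Leaving out the cells with markers of other cell types, the initiation list kept a median of 1.24 with 3 genes at least 2-fold higher, the other receptors had a median of 0.47 with 5 higher and 1 lower, and the regulators 0.19 with 3 higher and 1 lower. The lipid kinase complex had a median of 0.31 with 1 higher and 2 lower, conjugation and lipid transfer 0.08 with none higher and 2 lower, and fusion 0.02 with none higher and 1 lower. Over all 9085 genes the median was then -0.002, with 13.2% at least 2-fold higher and 18.0% lower, and that of the 10 members 0.14, with 3 higher and 1, Atg7, lower.

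**Figure D5:**
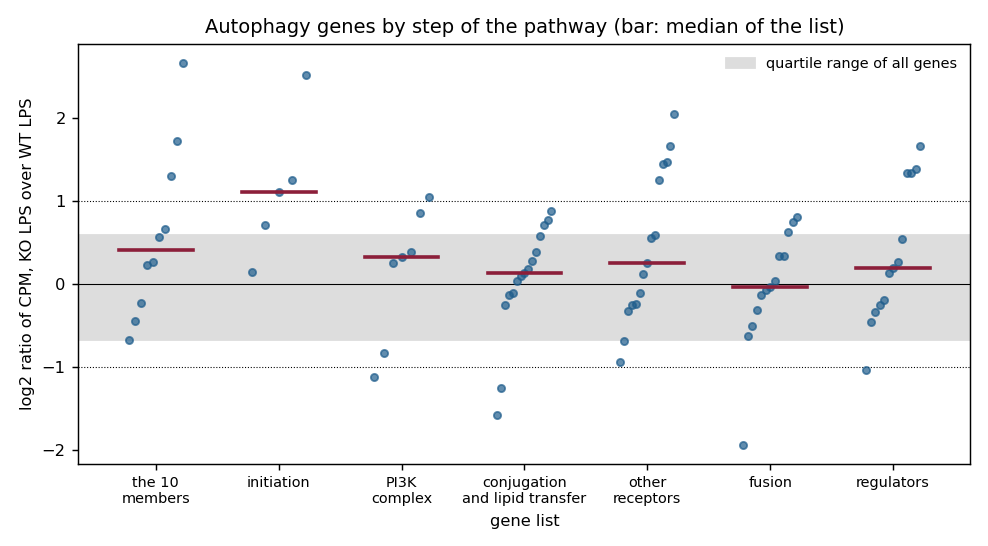
log2 ratio of CPM, KO LPS over WT LPS, of the 10 members and of the genes with at least 20 UMIs in 6 further autophagy lists (points), with the median of each list (bar), the range between the quartiles of all genes (grey) and 2-fold lines (dotted). The initiation list has the highest median at 1.11, and the fusion list the lowest at -0.04.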

How the data were processed

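Each library came as a matrix of unnormalised UMI counts (genes by barcodes) that the authors deposited with no filter on cells. The submitters' processing notes name bcl2fastq 2.0, STAR and the builds mm9 and mm10, and which of these apply to the single cells, the annotation and the strand setting are not given in the sources used here. Genes listed as missing in 1 library were read as 0.

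UMIs were summed over cells and divided by the library's cell UMIs (CPM). Reads were not divided by transcript length, since each molecule is tagged at its 3' end. Exact Poisson (levels), conditional binomial (ratios), conditional odds ratio (ratios of ratios) and Clopper-Pearson (shares) intervals of 95% were used (Python 3.11.15, scipy 1.17.1), and edgeR 4.0.16 gave TMM factors only. Intervals take UMIs as independent. Doublets were left in, and the 5% deepest cells were removed as an alternative. Further alternatives changed the cell filter, the markers, the scaling, the summary over cells, free RNA and thinning. Named genes were the members, Park7, the highest and lowest gene of each pathway list with at least 50 UMIs, and the 3 genes most like Sqstm1, and other pathway genes past 2-fold and Nfkbia were named after their values were seen. Members and lists were chosen with earlier results of these data known.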

Additional observations from a re-analysis of the deposited data

Results flagged for a closer look

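In barcodes outside the cells, which entered no comparison of cells, 3 of the 10 genes stood higher in KO LPS than in WT LPS beyond counting error, that is with an interval of the ratio above 1, beside 17.9% of the 9085 genes in the same barcodes. Sqstm1 had 27 UMIs in either library there, or 89.0 and 25.1 CPM, a ratio of 3.54 (2.00 to 6.27). Map1lc3a stood at 42.8 and 6.51 CPM, a ratio of 6.58 (2.44 to 19.5), and Gabarapl2 at 52.7 and 9.30 CPM, a ratio of 5.67 (2.42 to 14.0). These barcodes hold free RNA and cells of few UMIs.

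In WT LPS Sqstm1 was 2.88-fold higher in the cells than outside them (1.90 to 4.52), and in KO LPS the ratio of cells to outside was 0.973 (0.567 to 1.68). The KO LPS ratio was 0.337 times that of WT LPS (0.167 to 0.686). Gabarapl2 gave 4.11 (2.12 to 8.91) in WT LPS, 1.14 (0.579 to 2.32) in KO LPS and 0.279 (0.0996 to 0.766) between them. For the other 8 genes the interval of this ratio between the libraries included 1.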

How the results depend on the processing

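Of 104 values of single members under 11 alternatives, 98 stayed within their counting interval, 6 moved beyond it, and 6 had no value because a library had 0 UMIs. Of 60 values of the classes, the counts and the share, 56 stayed and 4 moved. Sqstm1, Map1lc3b and Atg5, whose intervals include 0, changed sign under 1 alternative each. The core machinery, whose interval includes 0 as well, went from -0.12 to 0.004 in cells with 0 to 2 inflammatory UMIs. It was 0.028 as a mean of each cell's UMI fraction and 0.135 without the 5% of cells with most UMIs. Without the cells that held markers of other cell types the ATG8 log2 ratio was 0.36. In cells with a Y-linked and no Xist UMI, 12 of them in KO LPS, the receptor log2 ratio was -0.50 (-5.85 to 2.09), from 1 receptor UMI in KO LPS. The Sqstm1 share differed by -4.62 points there, and both values are too sparse to read. The core machinery, the receptors against the core and the count past 2-fold had no value there. Thinned to 1000 UMIs the Sqstm1 share was 4.03 points higher in KO LPS, and in cells with Xist and no Y-linked UMI it was 0.70 points higher. The cause of these shifts was not tested. The share over barcodes with fewer than 500 UMIs was not run, since they cannot be thinned to 500. With at least 1 UMI per gene 22.8% of all genes were at least 2-fold higher and 30.3% lower, and with at least 50 UMIs 10.3% and 16.3%. Median-of-ratios factors moved all log2 ratios by -0.21. No paired analysis was possible because each genotype had 1 library. Depth limits Atg7, Optn, Map1lc3a and Gabarapl1 most, with fewer than 30 UMIs each in either library.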
